A study of Mus musculus with 23 samples.

Results

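The 8 genes described here are Stra8 and 7 genes for RNA-binding proteins, or in the case of Meioc a partner of one, that act around the entry of mouse germ cells into meiosis: Meioc, Ythdc2, Rbm46, Dazl, Boll, Ddx4 and Cpeb1. They were taken by gene symbol from the annotation of the array platform. All 8 were found among 19661 genes on the array, each with 1 probe set, and all 8 passed the filter on dim signal that left 14745 genes for testing. RNA came from germ-cell preparations of juvenile testes of mice aged 14.5 days, with 4 testes pooled per array, and was hybridized to Affymetrix Mouse Gene 1.0 ST arrays. The 23 arrays fell into 7 genotypes, and the labels name no treatment. PWDxB6 (3 arrays) and B6xPWD (3 arrays) are the reciprocal F1 hybrids of PWD, an inbred strain of Mus musculus musculus, and B6, a classical inbred strain largely descended from Mus musculus domesticus. PWDxPWK (2 arrays) is an F1 within Mus musculus musculus, PWD (3 arrays) and B6 (3 arrays) are the inbred parents, and B6xBALB/C (6 arrays) and BALB/CxB6 (3 arrays) are reciprocal F1s of laboratory strains. By convention the mother's strain is written first, so PWDxB6 males carry the PWD X chromosome and B6xPWD males the B6 X. PWDxB6 males are known in the field as sterile, with arrest in meiotic prophase. Whether the pools of a genotype stem from different litters is not stated, and p-values here reflect only how far the pools spread.

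In mice, retinoic acid switches on Stra8 in spermatogonia, and STRA8 protein, with its partner MEIOSIN, activates transcription of meiotic genes. MEIOC binds the RNA helicase YTHDC2, and this complex, which also includes RBM46, binds RNA and helps germ cells leave the mitotic cell cycle and stay in meiotic prophase. DAZL and BOLL belong to the DAZ family of RNA-binding proteins: DAZL controls translation in germ cells before and during meiosis, while BOLL is needed later, in spermatids. DDX4, the mouse homologue of Drosophila vasa, is an RNA helicase of germ granules, and CPEB1 binds a polyadenylation element in messenger RNAs, among them those of synaptonemal complex proteins. At the age sampled, the first wave of spermatogenesis has reached meiotic prophase.

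All 8 genes are autosomal. On build GRCm38.p6, Stra8 lies at chr6:34920163-34939344, Meioc at chr11:102665351-102682240, Rbm46 at chr3:82836521-82876512, Dazl at chr17:50279393-50293620, Boll at chr1:55243566-55363789, Ddx4 at chr13:112598333-112652633, and Cpeb1 at chr7:81347026-81458001. Promoter windows of RefSeq, from 250 bases before to 50 after a listed start, were matched by symbol for 7 of the 8 genes, with 8 windows in all since Boll has 2. They were searched on both strands for 2 motifs, chosen as background to the pathway: AGGTCA, the half-site of retinoic acid receptors, and CNCCTCAG, the motif known for STRA8 with MEIOSIN. The half-site was found in the Stra8 window, at 2 places, and in none of the other 7 windows, whereas 16.3% of 32851 windows of all genes hold it. The upstream stretch of Stra8 is shown because retinoic acid acts on Stra8 first in this pathway. The listed start lies inside the gene's annotated interval, so another transcript begins further upstream. The stretch runs 5′ to 3′ on the plus strand at chr6:34920698-34920947, with the half-sites, which begin at -194 and -38 from the start, in capitals.

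Stra8: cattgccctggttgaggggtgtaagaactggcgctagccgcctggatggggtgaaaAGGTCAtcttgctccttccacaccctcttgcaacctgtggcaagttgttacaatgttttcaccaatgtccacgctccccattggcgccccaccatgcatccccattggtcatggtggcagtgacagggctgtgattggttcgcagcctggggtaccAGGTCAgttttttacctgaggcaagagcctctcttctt

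The second motif was found in 7.94% of all windows, and among these genes in those of Dazl and Rbm46, at 1 place each. The 30 bases around it, on the minus strand at chr17:50293587-50293616 and chr3:82876481-82876510, are given 5′ to 3′ with the motif in capitals. In Dazl it begins at +16 from the start, inside the transcript, and in Rbm46 its reverse complement begins at -16 from the listed start. Each of these stretches, that of Rbm46 too, lies inside the annotated interval of its gene. A match of letters is no evidence of binding, and the sequence is that of C57BL/6J only.

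Dazl: cgcgcagcccaCGCCTCAGtgactcggcga

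Rbm46: ggcacgctaggCTGAGGCGaagagcccgtg

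Values are given on the log2 scale of the deposited table, where the median probe set ran from 6.13 to 6.28 over the 23 arrays. No 2 arrays of a genotype were identical. B6xBALB/C replicate 6 stood apart from its group: its mean correlation with the other arrays of that genotype was 0.964 across the tested genes, whereas the other 22 arrays had between 0.981 and 0.992 with theirs. On that array the mean of 15 markers of pachytene spermatocytes, relative to all arrays, was -0.75, against 0.42 to 1.09 on the other 5 of its genotype, and the mean of 12 Sertoli cell markers was 0.22 against -0.33 to 0.05. It was also the lowest of its group for 6 of the 8 genes. Since all arrays share 1 estimate of the spread, results that rest on it are given with and without it. In RNA from mixed cells, fewer cells of a type and less RNA per cell cannot be told apart. All 12 Sertoli genes on the array also passed the dim filter, which removes only the genes of lowest mean.

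Across the 7 genotypes, 6 of the 8 genes differed by limma's moderated F-test at a Benjamini-Hochberg adjusted p under 0.05, where 33.8% of all tested genes did. These were Stra8 (adjusted p = 0.000332), Ddx4 (0.00245), Meioc (0.00882), Dazl (0.0137), Cpeb1 (0.0274) and Boll (0.0278). Rbm46 (adjusted p = 0.0827) and Ythdc2 (0.412) did not pass. Without B6xBALB/C replicate 6, 7 of the 8 passed, Rbm46 being added (adjusted p = 0.00903), where 41.1% of all genes did.

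**Figure D1:**
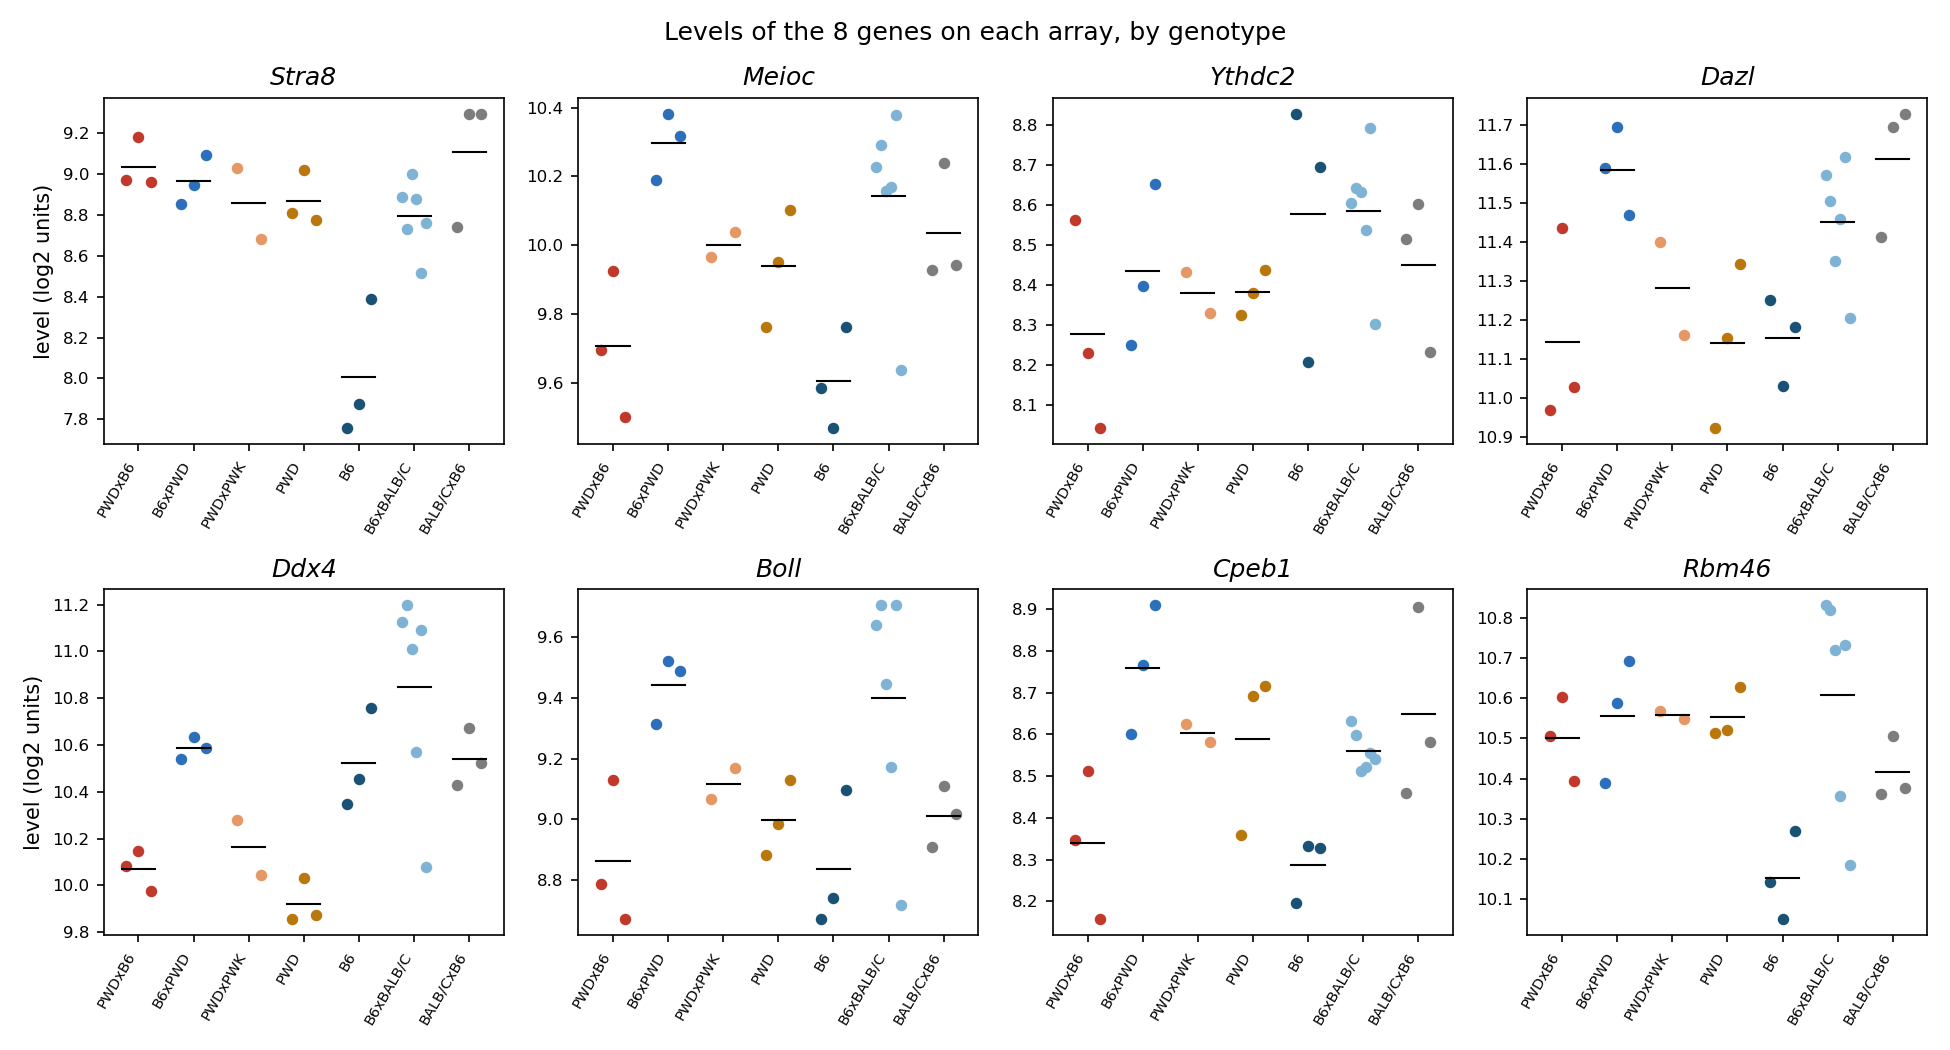
Level of each of the 8 genes (log2 units, vertical axis, a separate range per panel that does not start at 0) on each of the 23 arrays, by genotype; each point is an array and each line the mean of a genotype. Stra8 was lowest on the 3 B6 arrays (7.76 to 8.39), and for Meioc, Dazl, Ddx4, Boll and Cpeb1 all PWDxB6 points lay below all B6xPWD points.

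Stra8 was low in B6 and higher in every other genotype. It had levels of 8.96, 8.97 and 9.18 in PWDxB6, 8.85, 8.95 and 9.09 in B6xPWD, and 8.68 and 9.03 in PWDxPWK. The inbred strains had 8.77, 8.81 and 9.02 in PWD and 7.76, 7.88 and 8.39 in B6. The 3 B6 arrays lay below all 20 other arrays, which ran from 8.52 to 9.29, and the other 6 genotypes overlapped with their neighbours when ordered by mean. B6xBALB/C ran from 8.52 through a median of 8.82 to 8.9999, and BALB/CxB6 had 8.74, 9.29 and 9.29. Stra8 was thus higher in PWD than in B6 by 0.86 (SE 0.16, 1.81-fold, limma adjusted p = 0.000627). Against the mean of PWD and B6 it rose in both hybrids, by 0.60 (SE 0.14, adjusted p = 0.0453) in PWDxB6 and by 0.53 (SE 0.14, adjusted p = 0.0176) in B6xPWD. The levels of both hybrids overlapped with those of PWD. Some lists of cell markers also differed between PWD and B6: the mean of 12 markers of undifferentiated spermatogonia, relative to all arrays, was -0.07 to 0.08 in PWD and -0.21 to -0.16 in B6. That of 8 endothelial markers was 0.01 to 0.13 in PWD and 0.24 to 0.53 in B6, and that of 5 macrophage markers -0.29 to -0.10 in PWD and 0.26 to 0.50 in B6. Other lists overlapped between the strains. Markers of differentiating spermatogonia averaged -0.09 to 0.08 in PWD and -0.26 to -0.05 in B6. Sertoli cell markers averaged 0.01 to 0.12 in PWD and 0.10 to 0.22 in B6. The part of cell composition in the Stra8 difference was not tested. The hybrid call in PWDxB6 was marginal, being lost in 15 of 33 alternatives, with an adjusted p of up to 0.369, and that in B6xPWD was lost in 2 of 33.

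Among the genes of the MEIOC complex, Meioc separated the reciprocal hybrids, while the arrays of both overlapped for Ythdc2 and Rbm46. Meioc levels were 9.50, 9.70 and 9.92 in PWDxB6, against 10.19, 10.32 and 10.38 in B6xPWD. No array of one hybrid reached the range of the other, and the difference was -0.59 (SE 0.15, 1.51-fold lower in PWDxB6, limma adjusted p = 0.0384). Ordered by mean, Meioc ran from B6 (9.60 ± 0.15, SD, n = 3) through PWDxB6 (9.71 ± 0.21, SD, n = 3), PWD (9.94 ± 0.17, SD, n = 3), PWDxPWK (10.002 ± 0.05, SD, n = 2), BALB/CxB6 (10.04 ± 0.18, SD, n = 3) and B6xBALB/C (10.14 ± 0.26, SD, n = 6) to B6xPWD (10.30 ± 0.10, SD, n = 3), and each neighbour in this order overlapped with the next. PWDxB6 therefore lay with B6 at the low end and B6xPWD at the high end, although both hybrids share the same autosomes.

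Ythdc2 varied least of the 8 genes between genotypes, its means spanning 0.31 log2 units. It ran from 8.28 ± 0.26 (SD, n = 3) in PWDxB6 to 8.59 ± 0.16 (SD, n = 6) in B6xBALB/C, and all neighbours overlapped. The spread within B6 alone, 8.21 to 8.83, was wider than that. The reciprocal difference was -0.16, with a 95% interval of -0.48 to 0.16. It was -0.30 without PWDxB6 replicate 1 and -0.04 without PWDxB6 replicate 3. Rbm46, like Stra8, was lowest in B6, with levels of 10.51, 10.52 and 10.63 in PWD against 10.05, 10.14 and 10.27 in B6. The strains did not overlap, and PWD was higher by 0.40 (SE 0.14, limma adjusted p = 0.0446), a call lost in 12 of 33 alternatives. One array outside B6 fell within its range, B6xBALB/C replicate 6, at 10.19. Rbm46 levels of 10.39, 10.51 and 10.60 in PWDxB6 overlapped with 10.39, 10.59 and 10.69 in B6xPWD, the difference being -0.05 (95% interval -0.34 to 0.23).

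Both members of the DAZ family lay lower in PWDxB6 than in B6xPWD on every array, but neither passed the test over all genes. Dazl had 10.97, 11.03 and 11.44 in PWDxB6, against 11.47, 11.59 and 11.70 in B6xPWD. The nearest arrays were close, and the difference was -0.44 (SE 0.14, limma adjusted p = 0.0745). Boll had 8.67, 8.79 and 9.13 in PWDxB6 and 9.32, 9.49 and 9.52 in B6xPWD, a difference of -0.58 (SE 0.19, limma adjusted p = 0.0906). Their order across the other genotypes was not the same. In PWD Dazl averaged 11.14 ± 0.21 (SD, n = 3) and in B6 11.15 ± 0.11 (SD, n = 3), close to PWDxB6 (11.14). It was highest in BALB/CxB6 (11.61 ± 0.17, SD, n = 3). Boll had its lowest mean in B6 (8.84 ± 0.23, SD, n = 3) and its highest in B6xPWD (9.44 ± 0.11, SD, n = 3), next to B6xBALB/C (9.40 ± 0.39, SD, n = 6). Without replicate 6, B6xBALB/C averaged 9.53 ± 0.23 (SD, n = 5) and was highest. Boll was at 9.01 ± 0.10 (SD, n = 3) in BALB/CxB6, near the middle. For both genes every neighbour in the order of means overlapped with the next.

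Ddx4 had the widest spread of genotype means after Stra8, 0.93 log2 units. It had 9.98, 10.08 and 10.15 in PWDxB6, 10.04 and 10.28 in PWDxPWK, and 9.85, 9.88 and 10.03 in PWD. These 8 arrays, all from crosses or litters with a PWD mother, ran from 9.85 to 10.28. Of the other 15 arrays, 14 ran from 10.35 to 11.20, and B6xBALB/C replicate 6 had 10.08. That division was noticed in the values and not tested as such. Ddx4 fell in PWD relative to B6, by 0.60 on the log2 scale (SE 0.20, 1.52-fold, limma adjusted p = 0.0350), levels in B6 being 10.35, 10.46 and 10.76. This call was lost in 5 of 33 alternatives, when 1 of the PWD arrays or B6 replicate 2 or 3 was left out. B6xPWD, with 10.54, 10.59 and 10.64, lay above all PWDxB6 arrays, and the reciprocal difference was -0.52 (SE 0.20, limma adjusted p = 0.138).

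Cpeb1 was low in PWDxB6 (8.16, 8.35 and 8.51) and in B6 (8.20, 8.33 and 8.33), which overlapped. B6xPWD had the highest mean, with arrays at 8.60, 8.77 and 8.91, above every PWDxB6 array but by as little as 0.09 at the nearest pair. The reciprocal difference was -0.42 (SE 0.12, limma adjusted p = 0.0574). In B6xBALB/C its spread was the narrowest of the 8 genes, from 8.51 to 8.63, and B6xBALB/C replicate 6 lay inside it at 8.54.

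The comparison of PWDxB6 with B6xPWD asks what differs between hybrids that share their autosomes but not the X, the Y, the mitochondria or the parent of origin. Meioc was lower in PWDxB6 than in B6xPWD. Against the mean of the parents it was at -0.07 in PWDxB6 and 0.52 in B6xPWD. For 5 of the 8 genes, Meioc, Dazl, Ddx4, Boll and Cpeb1, all PWDxB6 arrays lay below all B6xPWD arrays, with means 0.42 to 0.59 log2 units apart. For comparison, 10.9% of all tested genes had all PWDxB6 arrays below all B6xPWD arrays. Past the limma test stood 1 of the 8, lower in PWDxB6, where 1.51% of all tested genes were lower. Without B6xBALB/C replicate 6, an array of neither hybrid, the estimates were the same and the shared spread smaller. All 5 then passed, with adjusted p of 0.00693 for Meioc, 0.0200 for Boll, 0.0268 for Ddx4, 0.0428 for Cpeb1 and 0.0477 for Dazl, where 3.41% of all genes were called lower. The median difference of the 8 genes was -0.43, against 0.03 for all tested genes. Stra8 (0.07, 95% interval -0.26 to 0.40), Rbm46 and Ythdc2 had overlapping arrays. The call of Meioc was lost in 7 of 33 alternatives. It was lost without PWDxB6 replicate 1 (limma adjusted p = 0.124) or 3 (0.173), and without B6xPWD replicate 2 (0.154) or 3 (0.0725). The other losses came with no filter (0.0506), with quantile normalization (0.0560) and in a fit of only the hybrid arrays compared (0.0560). In that last fit the 1 called gene was Ddx4 instead (limma adjusted p = 0.048).

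**Figure D2:**
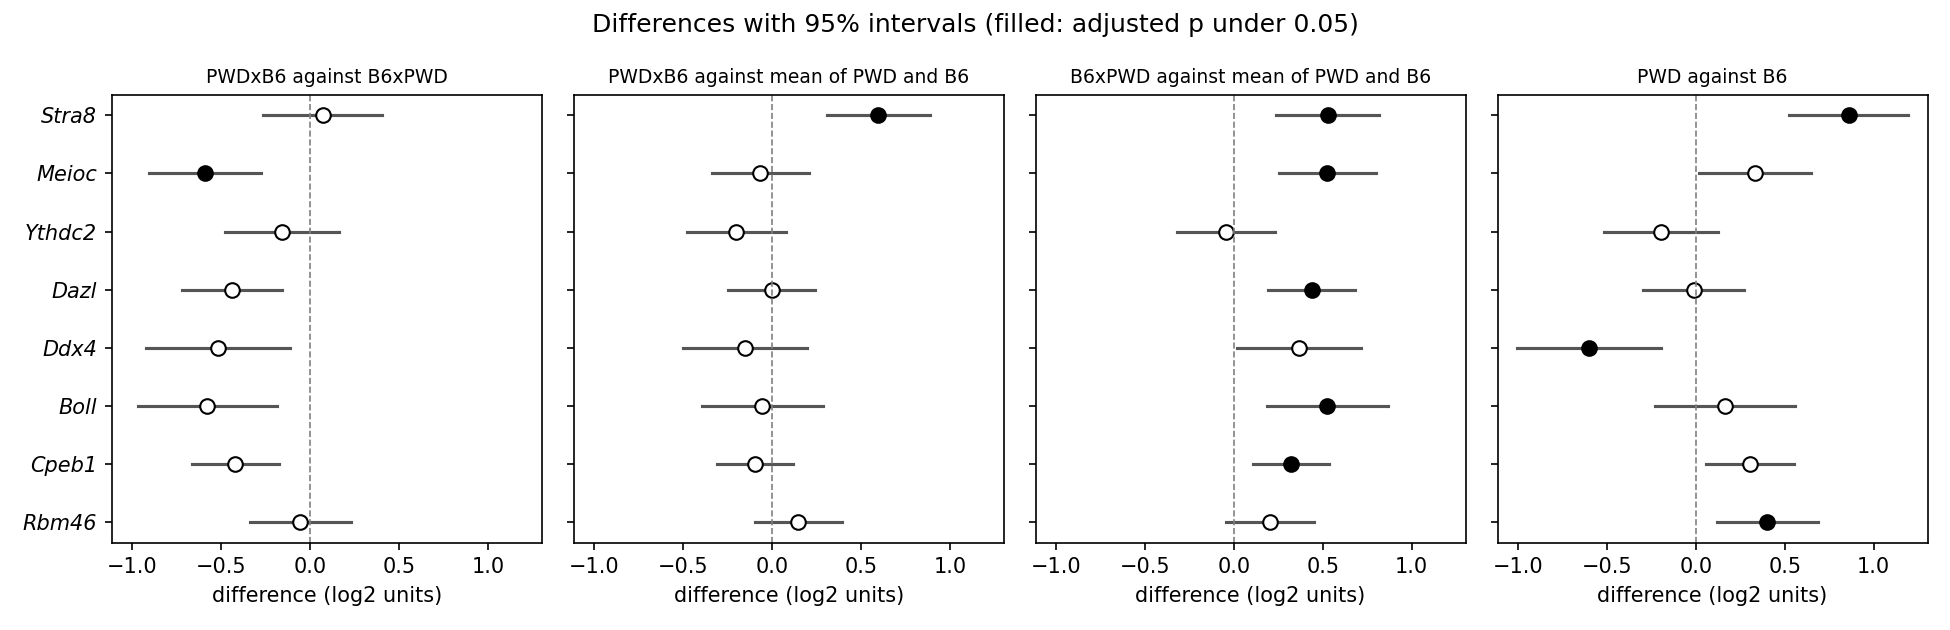
Differences of the 8 genes (log2 units, horizontal axis) with 95% intervals from limma in 4 comparisons; filled points passed at an adjusted p under 0.05. Meioc, Dazl, Ddx4, Boll and Cpeb1 lay between -0.59 and -0.42 in PWDxB6 relative to B6xPWD, and 5 genes were filled in B6xPWD relative to the mean of the parents.

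**Figure D3:**
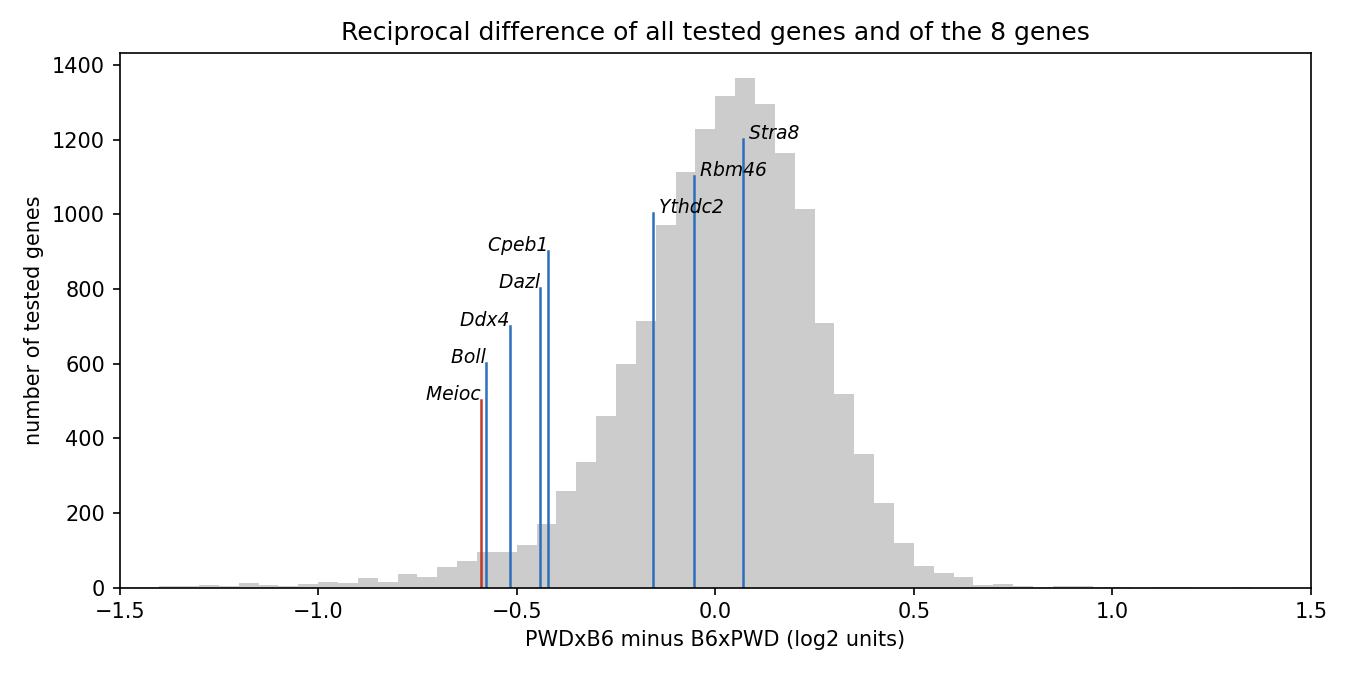
Histogram of the difference PWDxB6 minus B6xPWD (log2 units) over the 14745 tested genes, with 28 genes beyond the axis, and vertical lines at the 8 genes; the height of a line carries no value and red marks the gene past the test. Meioc (-0.59) to Cpeb1 (-0.42) lie in the left flank of the distribution, and Ythdc2, Rbm46 and Stra8 in its centre.

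Set against the mean of PWD and B6, Stra8 rose in both hybrids and 4 further genes passed in B6xPWD. These comparisons share the parental arrays, and their difference is the reciprocal comparison above. In PWDxB6, Stra8 rose and the other 7 genes did not pass, where 0.509% of all tested genes were called higher. Meioc (-0.07), Dazl (0.00), Boll (-0.05), Cpeb1 (-0.10), Ddx4 (-0.15), Ythdc2 (-0.20) and Rbm46 (0.15) had intervals that included 0. In B6xPWD 5 of the 8 rose, where 7.79% of all tested genes were called higher. Beside Stra8 these were Meioc (0.52, SE 0.13, 1.44-fold, limma adjusted p = 0.0133), Dazl (0.44, SE 0.12, adjusted p = 0.0192), Boll (0.52, SE 0.16, adjusted p = 0.0368) and Cpeb1 (0.32, SE 0.10, adjusted p = 0.0404). For Meioc, Dazl and Boll all B6xPWD arrays lay above all 6 parental arrays, which was so for 7.49% of all tested genes. Ddx4 (0.37, adjusted p = 0.142) passed without B6xBALB/C replicate 6 (adjusted p = 0.0326), where 9.74% of genes were called higher. The median of the 8 genes was -0.06 in PWDxB6, against 0.01 for all genes, and 0.40 in B6xPWD, against -0.03 for all genes. Without B6xPWD replicate 2 none of the 8 passed in B6xPWD, and the count over all genes was 389 against 2135. The calls of Cpeb1 and Boll were lost in 9 and 7 of 33 alternatives, those of Dazl and Meioc in 3 and 1.

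Between the inbred strains, PWD had more Stra8 and Rbm46 and less Ddx4 transcript than B6. Higher genes numbered 2 of the 8, where 10.4% of all tested genes were called higher, and lower genes 1 of the 8, where 8.04% were. Meioc (0.33, adjusted p = 0.134) and Cpeb1 (0.30, adjusted p = 0.0811) lay higher in PWD without passing limma's test. Probes were designed on a reference sequence, and an effect of strain differences under the probes was not tested.

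Compared with the F1 that shares its mother's strain, neither hybrid had a called gene among the 8. In PWDxB6 against PWDxPWK the differences ran from -0.30 (Meioc, 95% interval -0.65 to 0.06) to 0.18 (Stra8). Of all tested genes, 1.43% were called there in either direction. An unadjusted p under 0.05 in limma was found for 0 of the 8, against 1662 of all 14745 tested genes. Meioc and Cpeb1 (-0.26) lay lower on all PWDxB6 arrays than on both PWDxPWK arrays, as did 13.9% of all tested genes. In B6xPWD against B6xBALB/C the differences ran from -0.26 (Ddx4) to 0.20 (Cpeb1), where 9.3% of all tested genes were called in either direction. Again 0 of the 8 had an unadjusted p under 0.05 in limma, against 3740 of all 14745 tested genes. Without B6xBALB/C replicate 6, Ddx4 was lower in B6xPWD (-0.41, limma adjusted p = 0.0269), where 5.59% of genes were called lower. The reciprocal cross of laboratory strains, B6xBALB/C against BALB/CxB6, had 0 of the 8 called, where 0.441% of all tested genes were called in either direction. Boll (0.39) and Stra8 (-0.31), 2 of the 8, had an unadjusted p under 0.05 in limma. So did 2095 of all 14745 tested genes. Without B6xBALB/C replicate 6, Boll (0.52, adjusted p = 0.00996) and Ddx4 (0.46, adjusted p = 0.0184) were higher in B6xBALB/C, where 5.22% of genes were called higher. Over all genes, that comparison had 1011 calls without this array and 65 with it.

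Genes for retinoic acid supply and reception differed between the hybrids in both directions. Of 14 tested genes for retinoic acid supply and reception, 3 rose in PWDxB6 relative to B6xPWD, where 1.33% of all tested genes were called higher: Cyp26b1 (0.88, adjusted p = 0.0172), which degrades retinoic acid, and the receptor genes Rxra (0.41, adjusted p = 0.0195) and Rara (0.62, adjusted p = 0.0227), all by limma. Aldh1a2, a gene for a retinoic acid-synthesizing enzyme, was lower in PWDxB6 (-0.47, limma adjusted p = 0.0439), where 1.51% of all tested genes were called lower. Relative to the mean of the parents, 2 rose in B6xPWD, Aldh1a2 (0.78) and the binding protein gene Crabp1 (0.63), and 5 fell, among them Rara (-0.68) and Cyp26b1 (-0.80). Over all tested genes, 7.79% were called higher and 6.69% lower in B6xPWD. In PWDxB6 none of the 14 passed limma's test against the parents, where 0.671% of all tested genes were called in either direction. An unadjusted p under 0.05 in limma was found for 2 of the 14, against 1764 of all 14745 tested genes. The list's median reciprocal difference was 0.14, against 0.03 for all genes. The part of cell composition in the differences of this list was not tested.

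Of 22 tested genes of the meiotic programme that follows entry, such as cohesin and synaptonemal complex genes, 2 were lower in PWDxB6 than in B6xPWD. These were Rec114 (-0.60, limma adjusted p = 0.0410), which takes part in double-strand break formation, and Tex101 (-0.75, limma adjusted p = 0.0439), a germ cell surface protein gene. Over all tested genes, 1.33% were called higher and 1.51% lower in that comparison. The median of the 22 was -0.20, against 0.03 for all genes, and 20 of the 22 differences were negative. In B6xPWD 7 of the 22 rose against the parents and 0 fell, where 7.79% of all tested genes were called higher and 6.69% lower. Rec114 (0.69), the synaptonemal complex gene Sycp3 (0.87), Tex101 (0.72) and the cohesin gene Rad21l (0.47) had the smallest p. In PWDxB6 0 of the 22 passed against the parents in limma, where 0.671% of all tested genes were called in either direction. Among 25 other RNA-binding and translational regulators of germ cells, only Msi1 (0.72, limma adjusted p = 0.0077) passed in the reciprocal comparison, higher in PWDxB6, and the median was -0.01. Fmr1, an X-linked gene for an RNA-binding protein, lay above the mean of the parents in both hybrids, by 0.59 in PWDxB6 and 0.32 in B6xPWD. Each hybrid male carries only its mother's X, and Fmr1 was higher in PWD than in B6 (0.48, limma adjusted p = 0.00306). The mean of the parents is therefore no matched reference for Fmr1, and the sizes of these rises cannot be compared. In PWDxB6, 0.509% of all tested genes were called higher against the parents. Elavl2 (0.36) rose and Msi1 (-0.49) fell in B6xPWD. Of 12 genes that write, erase or read m6A, the RNA mark bound by YTHDC2, or act with YTHDC2, 0 passed limma's test in the reciprocal comparison, and Fto, a demethylase gene, fell in B6xPWD against the parents (-0.36, adjusted p = 0.0207).

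Markers of later germ cells and of somatic cells mostly differed in opposite directions between the reciprocal hybrids, but few passed the test. All 15 tested markers of pachytene spermatocytes had negative reciprocal differences, with a median of -0.58 and 0 past limma's test. An unadjusted p under 0.05 in limma was found for 7 of the 15, against 3112 of all 14745 tested genes. The mean of the 15 markers relative to all arrays was -0.75 to -0.25 in PWDxB6 and 0.05 to 0.61 in B6xPWD. Sertoli cell markers had 11 of 12 positive differences (median 0.18), their mean running from -0.03 to 0.18 in PWDxB6 and from -0.19 to -0.09 in B6xPWD. Peritubular and stromal markers had 9 of 11 positive, with Des (0.55) and Cnn1 (0.56) higher in PWDxB6 past the test, and means of -0.06 to 0.26 in PWDxB6 against -0.24 to -0.11 in B6xPWD. Endothelial markers had 7 of 8 positive, Leydig cell markers 3 of 4 and macrophage markers 3 of 5, with 0 past limma's test. Undifferentiated spermatogonia had a median of -0.01 over 12 markers, with none past limma's test, and means of -0.13 to 0.07 in PWDxB6 and -0.08 to -0.01 in B6xPWD. Of 9 markers of differentiating spermatogonia, Rhox13 (-0.90) was lower in PWDxB6 past the test, while 4 of the 9 differences were positive. Rhox13 was also called between the crosses of laboratory strains, lower in B6xBALB/C than in BALB/CxB6 (-0.67, limma adjusted p = 0.0436). In that comparison 0.441% of all tested genes were called in either direction. Over all tested genes, 1.33% were called higher and 1.51% lower in PWDxB6 than in B6xPWD. Endothelial means ran from -0.34 to 0.16 in PWDxB6 and from -0.48 to 0.04 in B6xPWD, and Leydig cell means from -0.31 to 0.18 in PWDxB6 and from -0.35 to -0.15 in B6xPWD.

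Against the mean of the parents, where 5 of the 8 genes rose in B6xPWD, all 15 pachytene markers had positive differences there (median 0.49), and 2 rose: Pdha2 (1.54, limma adjusted p = 0.00358), a testis-specific subunit of pyruvate dehydrogenase, and Spag6 (0.49, adjusted p = 0.00837), a gene of the sperm flagellum. Markers of differentiating spermatogonia rose in 3 of 9, namely Rhox13 (0.98), Sohlh2 (0.58) and Dmrtb1 (0.50). Over all tested genes, 7.79% were called higher in B6xPWD against the parents. Of the somatic markers, 4 of 12 for Sertoli cells fell, among them Wt1 (-0.58) and Amh (-0.56), where 6.69% of all tested genes were called lower. So did 4 of 11 for peritubular and stromal cells, 4 of 8 for endothelium and 1 of 4 for Leydig cells (Cyp11a1, -0.64). Macrophage and undifferentiated spermatogonial markers had none past limma's test. In PWDxB6 none of the markers in these 8 lists passed against the parents, where 0.671% of all tested genes were called in either direction. The pachytene median there was -0.13. The part of cell composition in the differences of the 8 genes was not tested.

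Between the inbred strains, the 8 genes did not all differ in the direction of the pachytene markers. The markers were lower in PWD, at -0.80 to -0.62, than in B6, at 0.09 to 0.53. Of the 15, 5 fell in PWD, where 8.04% of all tested genes were called lower. Ddx4 was lower in PWD as well, whereas Stra8 and Rbm46 were higher there. Without passing the test, Meioc (0.33), Cpeb1 (0.30) and Boll (0.16) also lay higher in PWD, and Ythdc2 (-0.20) and Dazl (-0.01) lower. Within B6xBALB/C, Rbm46 was lowest on replicate 6 (10.19, against 10.36 to 10.83), where the pachytene mean was -0.75. How far the 8 genes follow these markers was not tested.

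**Figure D4:**
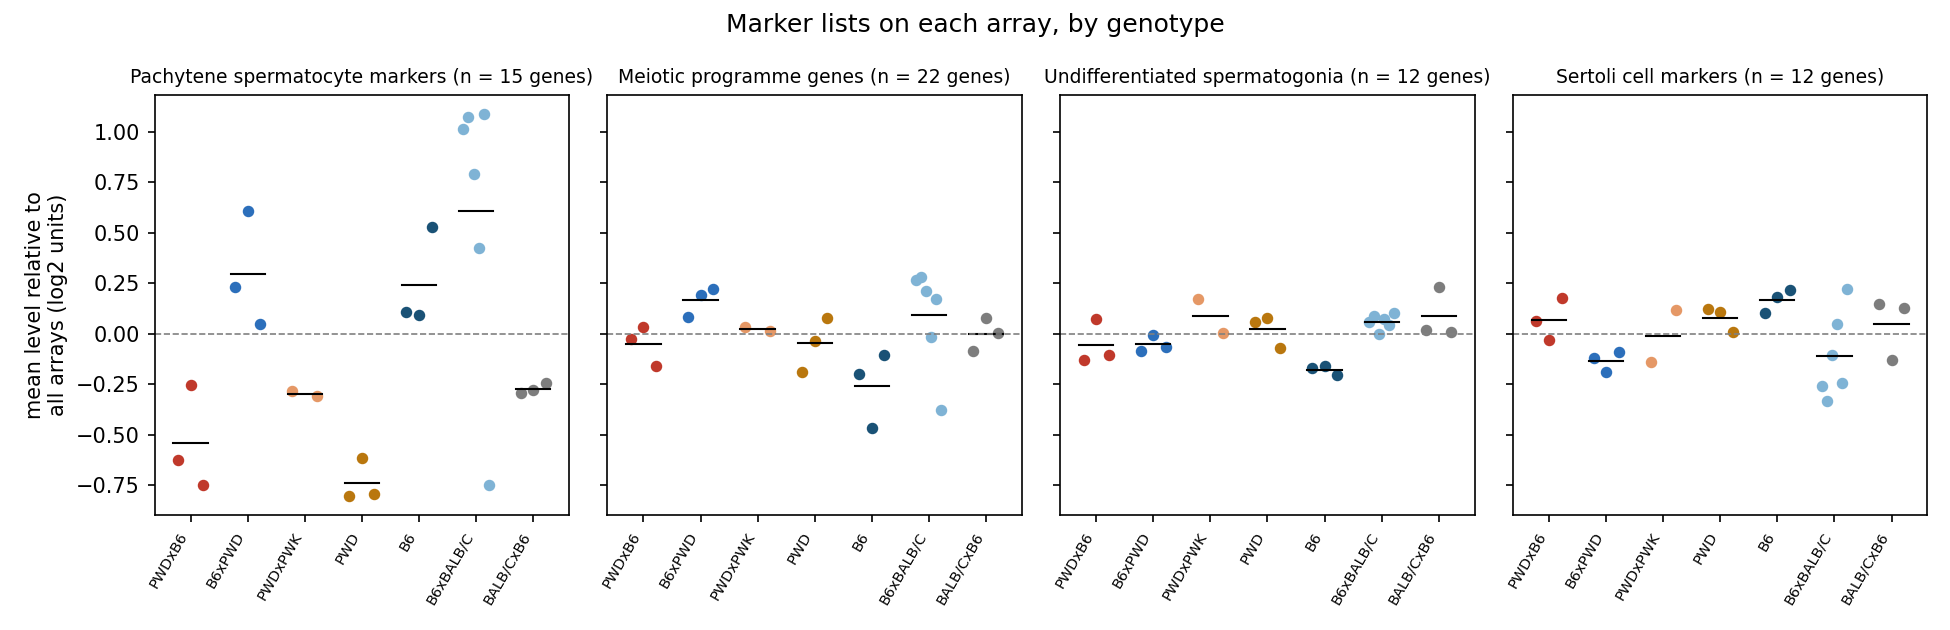
Mean level of the tested members of 4 lists on each array, relative to the mean of all arrays (log2 units), by genotype; points are arrays and lines genotype means. Pachytene markers lay between -0.75 and -0.25 in PWDxB6 and between 0.05 and 0.61 in B6xPWD, and 1 B6xBALB/C array, replicate 6, lay at -0.75.

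The genes differed in which other genes had the most similar pattern, measured as Pearson's r over the 23 arrays, which share genotypes and composition. Ddx4 was most like Psma8 (r = 0.968), Piwil2 (0.967) and Tdrd1 (0.960). Boll was most like Tdrd12 (0.958), Cep43 (0.933) and Wfdc15a (0.931), and Rbm46 most like Strbp (0.948), Efcab7 (0.924) and Hsf2bp (0.909). Meioc was most like Boll itself (0.907), then Fbxl5 (0.893) and Snx27 (0.886). The nearest genes of Dazl were Actl6a (0.909), Smn1 (0.874) and Lrrc40 (0.873), and those of Ythdc2 were Cep295 (0.895), Psme4 (0.878) and Kntc1 (0.867). Stra8 was nearest to Nans (0.879), Lsm14a (0.879) and Nelfb (0.867), and Cpeb1 to Ppp2r1b (0.861), Wrap53 (0.835) and Elavl2 (0.833). Of the 8 genes, only Meioc had another of them among its 3 nearest.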

How the data were processed

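Signals of 25690 probe sets on 23 Affymetrix arrays were deposited by the authors as log2 values, a base inferred from their span of 1.17 to 13.96. How background was corrected and arrays were normalized or centred is not given in the sources used here. Per the series design text, the authors excluded an outlying array of the PWDxPWK genotype. No scanner files were analysed here. Of the probe sets, 20777 had 1 gene symbol, 232 several and 4681 none listed. Entrez IDs of 20696 matched the RefSeq table of GRCm38.p6. The probe set with the highest mean represented a gene. The 25% of genes with the lowest mean (log2 below 5.125) were left out.

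All arrays entered 1 limma fit (version 3.58.1) in R 4.3.3 with a mean per genotype and 16 residual degrees of freedom, with Benjamini-Hochberg adjustment over 14745 genes and a threshold of 0.05. The fit was tested on simulated data with noise drawn independently for each gene and array. Such data hold no shift that many genes of an array share. Figures used Python 3.11.15 and matplotlib 3.10.9. Named genes were all 8 genes, up to 4 members of each other list with the smallest p among those past the test, and the 3 genes most similar to each. Described ranges, such as those of Ddx4 by mother, were chosen after their values were seen. Members and lists were chosen with earlier results of these data known. The 33 alternatives were the filter, normalization, centring, probe sets, variance model, array weights, a replicate block, the arrays fitted and each array left out.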

Additional observations from a re-analysis of the deposited data

Results flagged for a closer look

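Meioc on B6xBALB/C replicate 6 had a level of 9.64, farther below the other 5 arrays of its genotype (10.16 to 10.38) than chance usually gives in a group of 6. Chance marks about 1 in 20 such groups, and 8 genes were examined in this one. The same array was lowest of its group for Boll (8.72), Ddx4 (10.08) and Rbm46 (10.19), and low for pachytene markers.

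The departure of Meioc from the mean of the parents differed between the reciprocal hybrids, -0.07 in PWDxB6 and 0.52 in B6xPWD, a difference of -0.59 that passed limma's test (adjusted p = 0.0384). Since both share the same parental mean, this is the reciprocal comparison given above and no further result. Its call was lost in 7 of 33 alternatives.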

How the results depend on the processing

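Of 56 differences (8 genes in 7 comparisons), the 10 called kept their sign in all 33 alternatives, 9 of them losing the call in at least 1, and 12 of 46 uncalled ones changed sign in at least 1. The 6 genes called over all genotypes became 4 to 8. In PWDxB6 against B6xPWD the 1 called gene became 0 with no filter or quantile normalization, 2 with the lowest 40% left out, 5 with array weights, 4 without B6xBALB/C replicates 4 to 6, also 4 with a replicate block, a fit that leaves out those same 3 arrays, and 0 to 5 when 1 array was left out. Against the mean of the parents, the 1 in PWDxB6 became 0 with no filter and 0 to 1 with an array left out, and the 5 in B6xPWD became 3 with quantile normalization, 7 with array weights and 0 to 6 with an array left out. The 3 in PWD against B6 became 1 to 3 with an array left out, namely 1 without PWD replicate 2 or 3 or B6 replicate 2 or 3. In B6xPWD against B6xBALB/C, 0 became 1 with array weights, with the replicate block and without replicates 4 to 6, and 0 to 1 with an array left out, and in B6xBALB/C against BALB/CxB6, 0 became 3 in the same 3 settings and 0 to 2. Apart from arrays left out, the causes were not tested. Over all genes, the reciprocal count of 418 ranged from 54 (without PWDxB6 replicate 3) to 4635 (array weights), that of PWDxB6 against the parents, 99, from 30 to 239, that of B6xPWD, 2135, from 389 to 5967, and that of B6xBALB/C against BALB/CxB6, 65, from 0 to 1618. Counts of PWDxB6 against PWDxPWK (211) and of B6xPWD against B6xBALB/C (1371) ranged from 94 to 271 and from 570 to 4953, and that of PWD against B6 (2719) from 1802 to 3598. Replicate numbers paired the arrays in the labels by number only: deviations correlated above 0.1 in 17 of 57 pairs of same-numbered arrays, so the block was not used as a main result. The number of arrays, 2 to 6 per genotype, limits the precision, and signal over background could not be judged without scanner files.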
